A study of Solanum lycopersicum with 6 samples.

Results

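The microRNAs (miRNAs) miR393 and miR394 were described here in pedicels of the *hws-1* mutant and of WT tomato (*Solanum lycopersicum*). All rows of the deposited lists named miR393 or miR394, with or without a locus letter, were taken as members. This gave 6 of the 266 designations found over the 6 lists, which stand for 3 loci: miR393, miR394a and miR394b. Each locus has 1 row for its mature strand and 1 for its star strand, the strand of the miRNA duplex that is as a rule less abundant. All 6 designations were present in all 6 libraries.

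Small RNA was sequenced from 3 *hws-1* and 3 WT samples of the distal pedicel, between the abscission zone and the calyx, at 10 days after anthesis (DAA). Both lines are of the 'Micro-Tom' cultivar. The *hws-1* line carries a chemically induced, weak allele of *HAWAIIAN SKIRT* (*HWS*), which encodes an F-box protein that regulates miRNA levels, and it was used as a backcrossed population, while WT carries no such mutation. Several pedicel segments were bulked into each sample, so that a sample is an average over pedicels. The lists contain no mRNA, so neither *HWS* itself nor markers of pedicel tissues could be checked.

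miR393 and miR394 are both miRNAs that repress F-box genes, whose proteins select other proteins for degradation. In Arabidopsis, miR393 guides cleavage of the mRNAs of the auxin receptors TIR1 and AFB and thereby sets auxin sensitivity. miR394 in the same species targets *LEAF CURLING RESPONSIVENESS* (*LCR*), and it moves between cell layers of the shoot apex. In Arabidopsis the miR393 that acts on the auxin receptors comes from the 5p arm of the hairpin, and the best known miR394 is also a 5p product. A hairpin yields a 5p and a 3p strand, and usually one of them is loaded into ARGONAUTE and kept.

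Abundance was deposited as RPM, that is, reads of a row scaled to 1000000 reads, without regard to length. The paper calls this unit TPM, and that name is kept here. The value of 1 read was recovered from the common step of the low values, and it was 5.55, 6.36 and 8.76 TPM in *hws-1* replicates 1, 2 and 3, against 3.19, 3.88 and 3.57 TPM in WT replicates 1, 2 and 3. The totals implied by these steps are 114212 to 180179 reads per *hws-1* library and 257798 to 313526 reads per WT library. Which reads enter the scaling is not given in the sources used here. The paper states a depth of 1000000 reads per sample, so the libraries may have been sequenced more deeply than these totals. By these totals the deepest *hws-1* library was shallower than the shallowest WT library, so depth on this measure and line cannot be told apart. The listed miRNAs took 14.5% to 22.1% of these reads in *hws-1* and 13.7% to 17.9% in WT.

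The loci could be followed by name across the lists. Each library lists 1 miR393 locus and 2 miR394 loci. miR394a directly follows miR166b and miR394b directly follows miR482b in all 6 lists, and a miR172 locus directly follows miR393 in all 6. RefSeq (assembly SLM_r2.1), consulted for names only, has 1 gene named MIR393 and 1 named MIR394, so at most 1 of the listed miR394 loci has a named counterpart there. miR393 and miR394b are listed as Known and miR394a as Probable, a word for loci predicted from the reads and computational criteria.

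The listed mature arm differs between the families. For miR394 the 5p strand is listed as mature in all libraries. For miR393, in contrast, the 3p strand is listed as mature and the 5p strand as star, the reverse of the arm best known from Arabidopsis. The arm words are used here as the lists give them.

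The mature strand of miR393 was abundant and did not separate the lines. miR393-3p had 794, 986 and 1664 TPM in *hws-1* replicates 1, 2 and 3, against 944, 741 and 1211 TPM in WT replicates 1, 2 and 3. The ranges overlapped, and the single highest library was *hws-1* replicate 3. It averaged 1148 ± 457 TPM in *hws-1* and 965.4 ± 236 TPM in WT (SD, n = 3 each). On the log2(TPM + 1) scale this is a log2 fold change of 0.21 with a standard error of 0.38 (limma, Benjamini-Hochberg adjusted p = 0.93). The 95% interval of this fold, 0.65 to 2.05, leaves room for either direction. The sign rested on 1 library and on the scaling. Without *hws-1* replicate 3 it was -0.10, after rescaling all libraries to an equal sum of their listed rows -0.0035, and with median centring -0.18. Among the rows above 0, miR393-3p ranked 35, 44 and 32 in *hws-1* and 36, 35 and 34 in WT, counted from the most abundant.

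The mature strands of miR394 had a similar level. miR394a-5p had 366, 794 and 679 TPM in *hws-1* replicates 1, 2 and 3, against 791, 612 and 704 TPM in WT replicates 1, 2 and 3. miR394b-5p had 380.2, 851 and 709.9 TPM in *hws-1*, against 838, 641 and 759.5 TPM in WT, in the same order of replicates. Both rows were lowest in *hws-1* replicate 1 and highest in *hws-1* replicate 2, so the WT libraries lay inside the range of the mutant. miR394a-5p averaged 613.2 ± 221 TPM in *hws-1* and 702 ± 89.9 TPM in WT, and miR394b-5p averaged 647 ± 242 TPM in *hws-1* and 746 ± 99.1 TPM in WT (SD, n = 3 each). The log2 fold changes were -0.26 and -0.28 (standard errors 0.37 and 0.38, adjusted p = 0.93 for both from limma). Their 95% intervals reached from a fold of 0.47 to 1.47 for miR394a-5p and to 1.46 for miR394b-5p. Without *hws-1* replicate 1 both fold changes turned to 0.07.

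The 2 mature rows of miR394 followed each other closely. The miR394b-5p row was 1.04, 1.07 and 1.05 times the miR394a-5p row in *hws-1* replicates 1, 2 and 3, and 1.06, 1.05 and 1.08 times in WT replicates 1, 2 and 3. The excess of miR394b-5p was 2.5, 9 and 3.5 reads in *hws-1*, against 14.5, 7.5 and 15.5 reads in WT. The values in reads are mostly not whole, such as 124.8333 reads for miR394a-5p in *hws-1* replicate 2, and 1 of 6 libraries gave a whole number for miR394a-5p and 0 of 6 for miR394b-5p. Such values would arise if a read that maps to several positions were counted as a fraction at each, but how the pipeline treated these reads is not given in the sources used here. How much each of the 2 loci contributes therefore cannot be told apart. In contrast, miR393-3p was a whole number of reads in 6 of 6 libraries (143, 155 and 190 in *hws-1*, 296, 191 and 339 in WT).

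Since these rows may share reads, the 5p rows of both miR394 loci were also summed. The sum was 746, 1645 and 1389 TPM in *hws-1* replicates 1, 2 and 3, against 1629, 1252 and 1464 TPM in WT replicates 1, 2 and 3. The difference of the mean log2 values was -0.27, and the lines overlapped (two-sided exact permutation test, p = 0.70, where 3 against 3 libraries cannot give less than 0.10). As a share of the reads of all listed miRNAs, however, miR394-5p did not overlap between the lines. This share was 0.516%, 0.744% and 0.735% in *hws-1*, against 0.909%, 0.913% and 0.920% in WT. Shares of 20.7% of the 58 rows compared were likewise lower in *hws-1* without overlap, and 31.0% did not overlap in either direction. On this scale the log2 difference of the sum was -0.48, and with each library centred on its median -0.65 (two-sided exact permutation tests, p = 0.10 for both, the smallest possible). These scalings moved the median of all rows to -0.14 and -0.32, against 0.07 as deposited. In limma, miR394a-5p and miR394b-5p did not pass on either scale (adjusted p = 0.22 for both after rescaling and 0.082 for both after centring).

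Summed over both arms, miR393 had 1160 ± 457 TPM in *hws-1* and 1007 ± 234 TPM in WT, and miR394 had 1284 ± 472 TPM in *hws-1* and 1463 ± 189 TPM in WT (SD, n = 3 each). The log2 differences were 0.16 and -0.26, with overlapping lines (two-sided exact permutation tests, p = 0.60 and 0.70). Both signs depended on the libraries, since the miR393 sum gave -0.14 without *hws-1* replicate 3 and -0.0057 without WT replicate 2, and the miR394 sum gave 0.08 without *hws-1* replicate 1. The ratio of miR393-3p to the miR394-5p sum was 1.06, 0.599 and 1.20 in *hws-1* replicates 1, 2 and 3, against 0.58, 0.592 and 0.828 in WT. It overlapped as well, with replicate 2 of both lines at about the same ratio.

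**Figure D1:**
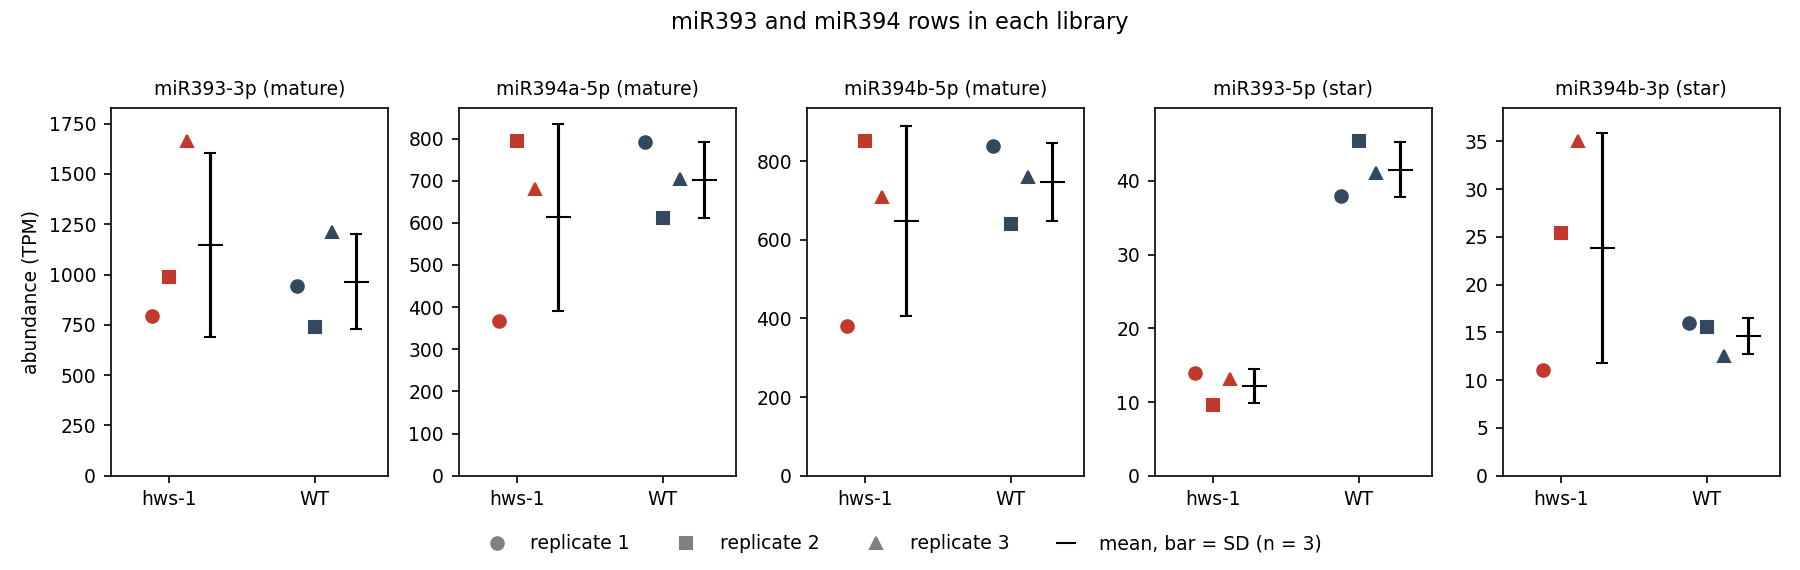
Abundance in TPM (y axis, each panel with its own scale from 0) of the 5 rows above 0 in *hws-1* and WT (x axis), with 1 point per library, its shape giving the replicate, and the mean with SD (n = 3) beside it. The 3 mature rows overlap between the lines, miR393-5p lies at 9.54 to 13.9 TPM in *hws-1* and 38.0 to 45.4 TPM in WT, and miR394b-3p overlaps.

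The star strands were far less abundant, and here the families differed. miR393-5p, listed as the star, fell in *hws-1*, to 13.9, 9.54 and 13.1 TPM in replicates 1, 2 and 3, against 38.0, 45.4 and 41.1 TPM in WT replicates 1, 2 and 3. Each *hws-1* library was below each WT library. The libraries within a line lay closer together than counting error alone would resolve. The 95% Poisson interval was 2.31 to 44.4 TPM in *hws-1* replicate 1 and 19.5 to 66.5 TPM in WT replicate 1, so this closeness is no measure of reproducibility. miR393-5p averaged 12.2 ± 2.32 TPM in *hws-1* and 41.5 ± 3.73 TPM in WT (SD, n = 3 each). limma gave a log2 fold change of -1.70 with a standard error of 0.33 (adjusted p = 0.0045), and its 95% interval corresponds to a fold of 0.19 to 0.50. These values rest on the spread between libraries, shared over rows. Since that spread was narrower here than counting error, they may understate the uncertainty. In these bulk samples, fewer cells that hold the strand and less of it per cell cannot be told apart.

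This row was the only 1 of the 5 member rows tested that passed the test. Over all 58 rows, 4 passed (6.90%), of which 2 were lower in *hws-1* (3.45%), and 8 passed when the replicate number was used as a block. Likewise, 1 of the 5 member rows did not overlap between the lines, against 19.0% of all rows, or 6.90% counting only rows lower in *hws-1*. The median log2 fold change was -0.26 over the 5 member rows and 0.07 over all 58. The call of miR393-5p was kept in each of the 6 limma fits without one of the libraries (adjusted p between 0.0035 and 0.032), and with the block it was 0.0017. It was lost when absent designations were set to 0, which raised the number of rows to 237 (adjusted p = 0.52).

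The call rests on few reads. For miR393-5p, *hws-1* replicates 1, 2 and 3 held 2.5, 1.5 and 1.5 reads, against 11.9, 11.7 and 11.5 reads in WT replicates 1, 2 and 3. No library gave a whole number, and whether reads were divided with another position was not tested. At the WT mean, the *hws-1* libraries would have held 7.47, 6.52 and 4.74 reads. The 95% Poisson interval of the reads included that number in 2 of the 3 *hws-1* libraries, so that in these a single library could not tell its value from the WT mean. Pooled over libraries, 5.5 reads in *hws-1* gave 4.22 to 27.4 TPM and 35.1 reads in WT gave 28.7 to 57.3 TPM (exact Poisson intervals, 95%). These intervals do not overlap, but they cover counting error only, treat fractions of reads as counts, and reads without molecular identifiers are not independent molecules.

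Taken over both strand types, other rows of low abundance in WT did not move in one direction. Rows were taken by their WT mean, so rows at 0 in WT could not enter, while rows at 0 in *hws-1* could. Among the 12 other rows with a WT mean above 0 and under 100 TPM, limits set after the values were seen, the median log2 fold change was -0.22, with a range of -1.92 to 1.29. Of these rows, 1 was lower and 3 were higher in *hws-1* without overlap. The lower one is miR482d-5p, and of the higher ones miR171a-5p and miR171b-5p hold identical values in all libraries. With such rows counted once, 1 of 11 was lower and 2 were higher. These higher rows and miR319c-3p, also higher, are mature strands. Within these limits, the low rows that are 5p stars, like miR393-5p, were mostly lower. Their log2 fold changes were -0.50 (miR162a-5p), -0.47 (miR162b-5p), -0.22 (miR166d-5p), -0.26 (miR166i-5p), -1.73 (miR319b-5p) and -1.92 (miR482d-5p), against 0.20 for miR6026-5p. The part of strand type, level and depth in this was not tested.

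**Figure D2:**
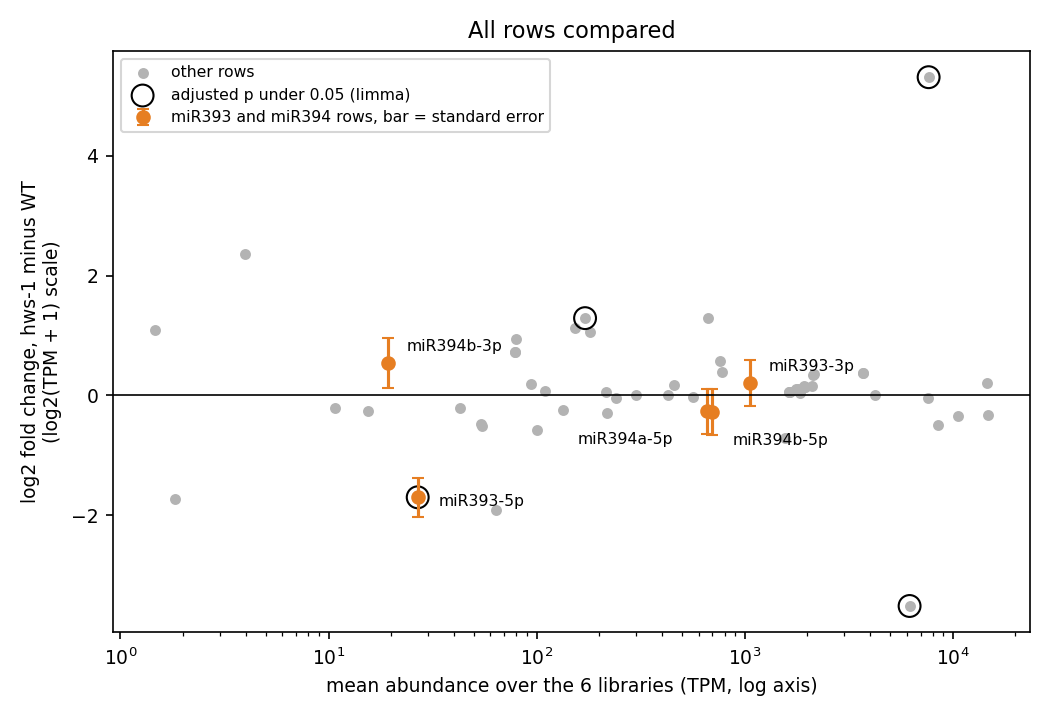
Log2 fold change between *hws-1* and WT (y axis, on the log2(TPM + 1) scale) against the mean abundance over the 6 libraries (x axis, log scale) for the 58 rows compared, with member rows in orange (bar, standard error) and rows with an adjusted p under 0.05 circled. miR393-5p at -1.70 is circled, and the other 4 member rows lie between -0.28 and 0.54.

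miR394b-3p, the star strand of miR394b, had 11.1, 25.4 and 35.0 TPM in *hws-1* replicates 1, 2 and 3, against 15.9, 15.5 and 12.5 TPM in WT replicates 1, 2 and 3. The lowest and the highest values both came from *hws-1*, so the lines overlapped. It averaged 23.9 ± 12.04 TPM in *hws-1* and 14.7 ± 1.88 TPM in WT (SD, n = 3 each), a log2 fold change of 0.54 with a standard error of 0.42 (limma, adjusted p = 0.68). The 95% interval runs from a fold of 0.77 to 2.73. These values stand for 2, 4 and 4 reads in *hws-1* and 5, 4 and 3.5 reads in WT. The pooled Poisson intervals, 10.6 to 40.7 TPM in *hws-1* and 7.71 to 25.4 TPM in WT, overlapped. The estimate leaned on single libraries, since the log2 fold change was 0.99 without *hws-1* replicate 1 (limma, adjusted p = 0.059) and 0.20 without *hws-1* replicate 3. The paper lists miR394b-3p among its accumulated miRNAs, at a fold of 1.6 from the means and without statistical significance.

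miR394a-3p, the star strand of miR394a, was listed at 0 in all 6 libraries. With counting error alone, a count of 0 allows up to 3 reads as a one-sided 95% limit, or 16.7, 19.1 and 26.3 TPM in *hws-1* replicates 1, 2 and 3, and 9.57, 11.6 and 10.7 TPM in WT replicates 1, 2 and 3. miR394b-3p exceeded this limit in 5 of 6 libraries and lay under it in *hws-1* replicate 1. Against the two-sided limit of 3.69 reads, as used for the Poisson intervals, it was higher in 4 of 6. Relative to the mature strand of miR394a, 3 reads correspond to 4.55%, 2.40% and 3.87% in *hws-1* and 1.21%, 1.90% and 1.52% in WT. These percentages depend on how mature reads were divided between the loci, if they were.

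**Figure D3:**
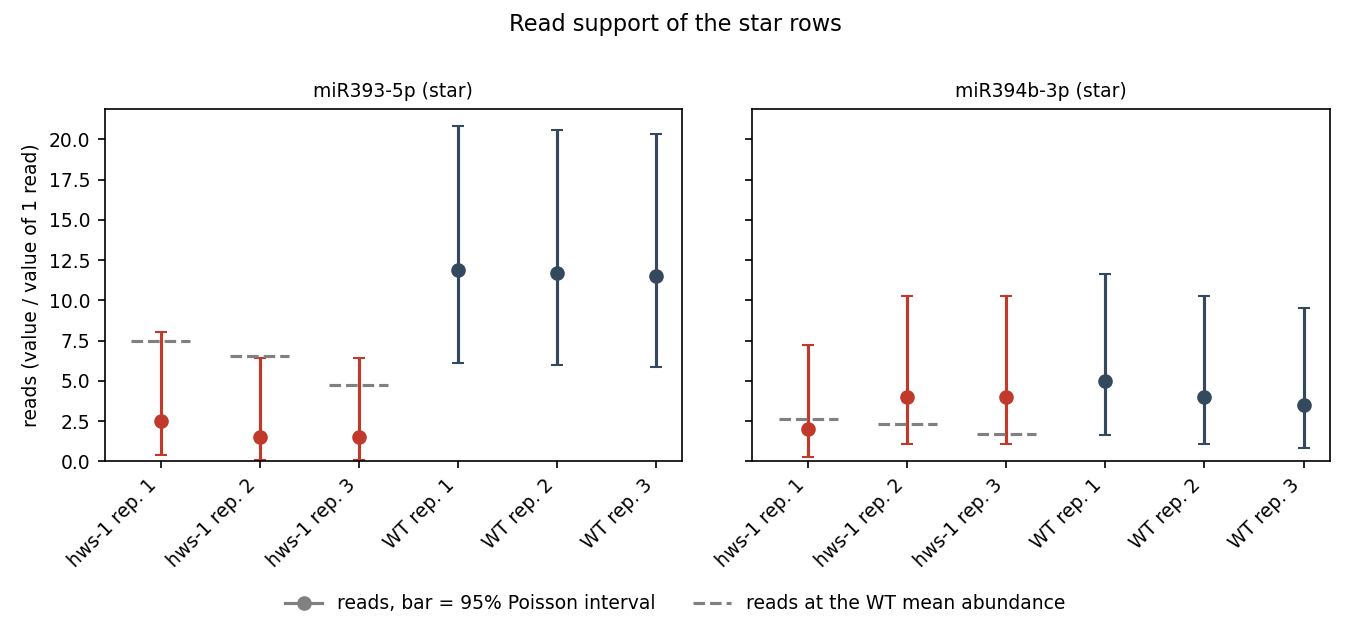
Reads behind the 2 star rows (y axis, value divided by the value of 1 read) in each library (x axis), with exact 95% Poisson intervals as bars, and dashed lines for the reads a *hws-1* library would hold at the WT mean. For miR393-5p the *hws-1* libraries hold 1.5 to 2.5 reads and the WT libraries 11.5 to 11.9, while for miR394b-3p the libraries hold 2 to 5.

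The ratio of the 2 arms within a library does not depend on how the library was scaled. For miR393, the 5p star was 1.75%, 0.968% and 0.789% of the 3p mature strand in *hws-1* replicates 1, 2 and 3, against 4.02%, 6.13% and 3.39% in WT replicates 1, 2 and 3. The star value was under 3 reads in all 3 *hws-1* libraries. With the exact 95% Poisson interval of the star reads, the percentages reach up to 5.60%, 4.14% and 3.38% in *hws-1* and down to 2.07%, 3.13% and 1.72% in WT, so single libraries of the lines overlapped within counting error. The mean percentage was 1.17 ± 0.510% in *hws-1* and 4.51 ± 1.43% in WT (SD, n = 3 each), and the point values did not overlap. The log2 ratio of star to mature (each TPM + 1) differed by -1.91 between the lines (p = 0.10 in a two-sided exact permutation test, the lowest this design allows).

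For miR394b the ratio differed the other way. Its 3p star was 2.92%, 2.99% and 4.93% of the 5p mature strand in *hws-1* replicates 1, 2 and 3, against 1.90%, 2.42% and 1.65% in WT replicates 1, 2 and 3. The point values of the 3 mutant libraries all lay above those of the 3 WT libraries, although neither arm alone separated the lines. With the exact Poisson interval of the star reads, the percentages reach down to 0.354%, 0.814% and 1.34% in *hws-1*. In WT they reach up to 4.44%, 6.20% and 4.47%, so single libraries of the lines overlapped within counting error. The mean percentage was 3.61 ± 1.14% in *hws-1* and 1.99 ± 0.395% in WT (SD, n = 3 each). The log2 ratio differed by 0.81 (p = 0.10 in a two-sided exact permutation test, the lowest this design allows), on a star strand of 2 to 5 reads. Without *hws-1* replicate 3 the difference was 0.58, and the exact permutation test gave p = 0.20.

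**Figure D4:**
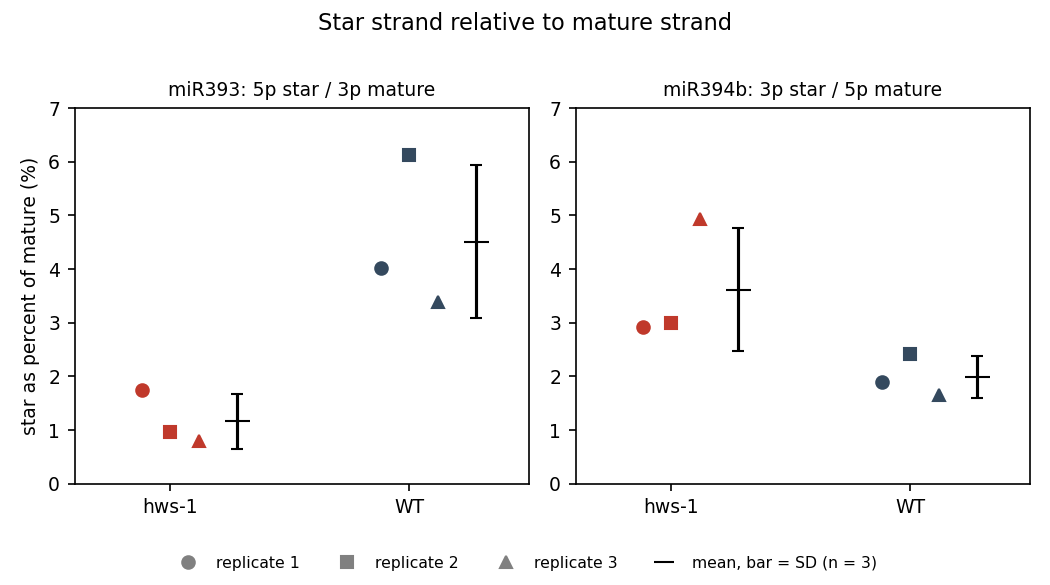
Star strand as a percentage of the mature strand (y axis) at miR393 and miR394b in *hws-1* and WT (x axis), with 1 point per library and the mean with SD (n = 3). At miR393 the *hws-1* libraries lie at 0.789% to 1.75% and the WT libraries at 3.39% to 6.13%, and at miR394b the *hws-1* libraries lie at 2.92% to 4.93% and the WT libraries at 1.65% to 2.42%.

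The same ratio could be computed at 25 loci with both arms above 0 in all libraries. It did not overlap between the lines at 6 of them (24.0%), 2 lower in *hws-1* (8.00%) and 4 higher (16.0%). The median difference over the 25 loci was -0.19. miR393 had the lowest difference of the 25, and miR394b the second highest after miR5300, at 0.95. In WT, the star share of miR393 ranked 9 and that of miR394b 5 of the 25, counted from the lowest, so both are loci with one strongly dominant arm.

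**Figure D5:**
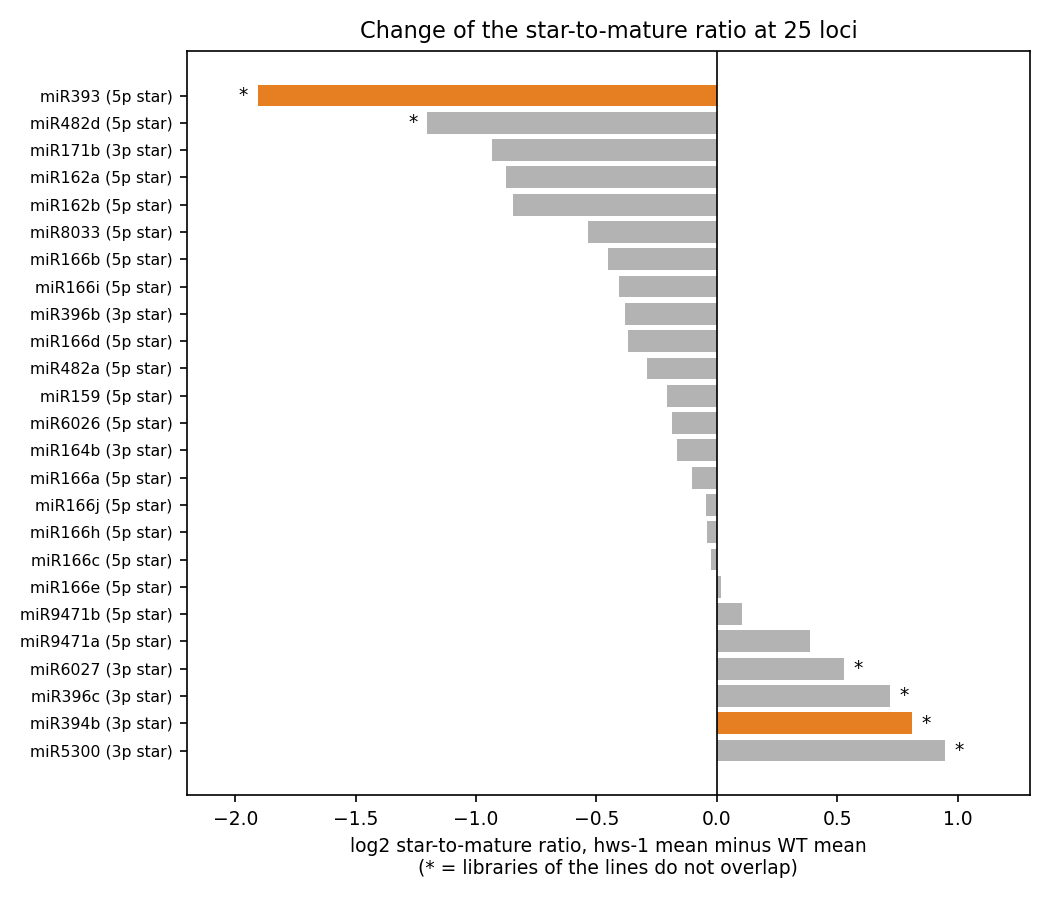
Difference in the log2 star-to-mature ratio between the *hws-1* mean and the WT mean (x axis) at 25 loci (y axis, with the star arm named), with miR393 and miR394b in orange and an asterisk where the lines do not overlap. The bars of miR393 at -1.91 and of miR394b at 0.81 point in opposite directions, and most other bars are shorter.

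Rows with a similar profile over the 6 libraries were looked for by the root mean square distance of log2(TPM + 1), each row centred on its own mean, over the 55 rows whose mean reached 10 TPM. The nearest row to miR394a-5p was miR394b-5p and the reverse, at 0.020, followed for both by miR9471b-3p (0.15 and 0.16) and miR166b-3p (0.15 and 0.16). For miR393-3p the nearest were miR166j-5p, miR166a-5p and miR166h-5p, each at 0.10. miR394b-3p was nearest to miR5300-3p (0.28), miR5300-5p (0.30) and miR6026-3p (0.34). For miR393-5p no row was close, since miR8033-5p (0.72), miR166b-5p (0.74) and miR162a-5p (0.78) came first, while the median distance to all rows was 0.99. These distances are descriptions over 6 libraries.

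Other miRNA families that act on auxin signalling or on F-box genes were looked for by name. These are miR160 and miR167, which target auxin response factors, miR390, which acts on them through trans-acting small RNAs, and miR2111, which targets a Kelch-repeat F-box gene in Arabidopsis. The lists hold 0 rows of each of these families, so miR393 and miR394 were the only ones that could be followed. For miR393, the 5p arm that acts on the auxin receptors in Arabidopsis had few reads here. It held 1.5 to 2.5 reads per *hws-1* library and 11.5 to 11.9 per WT library.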

How the data were processed

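Small RNA from bulked distal pedicels at 10 DAA was sequenced from 3 *hws-1* and 3 WT samples, assigned to lines from the labels. The authors ran the One Step pipeline of sRNAminer with default settings on each library and deposited RPM values, which the paper calls TPM. Version and genome build are not given in the sources used here. How reads with several positions were counted is not given there either. The lists hold no sequences.

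Rows were joined by full designation. The 58 rows present in all 6 libraries and above 0 in any were fitted in R 4.3.3 with limma 3.58.1 after a log2(TPM + 1) transform. Line was the sole factor, and p-values were adjusted over all 58 rows by the Benjamini-Hochberg method (threshold 0.05). A fold change on this scale understates that of low rows. Arm ratios and sums were compared by two-sided exact permutation tests. The value of 1 read is the largest step of which at least 25% of the values above 0 were whole multiples (tolerance 1e-06 reads). Whole reads were not recovered for all rows, so no count model was used. Python 3.11.15, numpy 2.4.6, pandas 2.3.3, scipy 1.17.1 and matplotlib 3.10.9 were used, and limma was tested on simulated data. There it found 3% of simulated 1.5-fold changes, 12% of 2-fold changes and 87% of 4-fold changes. A row that did not pass may therefore still differ by such smaller folds.

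Deviations from the line mean correlated weakly between samples of the same replicate number, taken from the labels (0.16, 0.22 and 0.23 across the 58 rows, against -0.33 to 0.14 between other numbers). These correlations constrain each other, since the deviations within a line add up to 0, and they were not tested. A replicate block was therefore only an alternative. Others were pseudocounts of 0.1 and 10, a mean of at least 10 TPM, absent designations set to 0, rescaling to the same sum, median centring, joining by name and arm, and leaving out each library. Every miR393 and miR394 row is named; up to 3 rows in each direction were to be named from miR160, miR167, miR390 and miR2111, and the 3 rows most like each member with a mean of at least 10 TPM. Further rows named were picked with their values in view. The members and lists were chosen with earlier results of these data known.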

Additional observations from a re-analysis of the deposited data

How the results depend on the processing

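The call of miR393-5p kept its direction in all 14 alternatives (log2 fold change -2.08 to -1.22) and its side of the threshold in 13 of them. With absent designations set to 0 the log2 fold change stayed at -1.70, but its adjusted p was 0.52, against 0.00062 to 0.032 in the other 13 (limma). The number of rows passing limma, 4, was 8 with a pseudocount of 10, 8 with a mean of at least 10 TPM, 8 with the replicate block, and 3 to 8 when one library was left out, with 8 without *hws-1* replicate 1. The replicate block gave all rows the same standard error, 0.44, and a pseudocount of 10 gave all member rows 0.35. In these 2 fits the adjusted p of miR393-5p therefore does not reflect its own spread. Neither fit changed a call among the member rows. The arm ratios of miR393 and miR394b kept their direction in all alternatives, with ranges of -2.23 to -1.42 and 0.58 to 0.96. With the replicate numbers paired, both gave p = 0.25 (exact sign-flip permutation), the smallest that 3 pairs allow. Signs that turned belong to values that never passed. For miR393-3p the log2 fold change was -0.0035 after rescaling, -0.18 after median centring and -0.10 to 0.44 with one library left out. The miR393 sum gave -0.050, -0.22 and -0.14 to 0.39 in the same order. With one library left out, miR394a-5p ranged from -0.48 to 0.072, miR394b-5p from -0.51 to 0.068, the miR394 sum from -0.49 to 0.085 and the miR394-5p sum from -0.50 to 0.070, each positive only without *hws-1* replicate 1. miR394b-3p ranged from 0.20 to 0.99 and never passed. Depth limits the star rows, which rest on at most 2.5 (miR393-5p) and 4 (miR394b-3p) reads per *hws-1* library.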

Other observations

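Although the star shares of miR393 and miR394b differed in opposite directions, in both loci the 3p strand was the one that was higher relative to the 5p strand in *hws-1*, since the star is the 5p strand of miR393 and the 3p strand of miR394b. This was noticed after the values were seen and no test was made. Expressed as 3p over 5p, the log2 difference between *hws-1* and WT was 1.91 for miR393 and 0.81 for miR394b. It was above 0 at 19 of the 25 loci with both arms above 0 in all libraries, with a median of 0.29 and a range of -0.93 to 1.91. At the 6 loci where the lines did not overlap, the 3p strand was relatively higher in *hws-1* each time. Of these 25 loci, 8 belong to miR166, whose loci can share reads, so they are not independent. miR162a and miR162b also hold identical 3p rows and nearly identical 5p rows. Among the 17 loci other than miR166 it was above 0 at 12, with miR162b left out at 11 of 16, and without miR393 and miR394b at 10 of 15. Among the 18 loci with a 5p star it was above 0 at 15, and among the 7 with a 3p star at 4. The lowest value was that of miR171b, with a 3p star, at -0.93. The part of depth, which differed between the lines, was not tested.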
